A study of Arabidopsis thaliana with 36 samples.

Results

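Of 22746 probe sets that are not controls, 5 were late risers shared by 3 Arabidopsis lines: in each line they stood clearly higher after 7 long days than before the first one, with little change by day 3. The rule took the mean of log2(signal + 16) over the 3 arrays of a line and day. The members were chosen by these values at days 0, 3 and 7, with day 7 minus day 0 of at least 0.7 and day 3 minus day 0 below 0.4 in each of the 3 lines. What follows at those days is therefore a description. On this scale 1 unit is close to a doubling for bright probe sets and stands for more than that for dim ones. A locus is listed for 3 of the 5: AT1G60160, AT3G49160 and AT1G60630. The other 2 have no gene listed here and are given by their identifiers, 247723_at and 251858_at.

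Signals came from 36 ATH1 arrays of biotin-labelled total RNA from the apical region of soil-grown plants with 10-18 leaves, 1 array per sample. All plants were moved from short to long days and sampled at 0, 3, 5 and 7 long days, with 3 arrays per line and day. The line FRI flc-3 combines FRI from Sf-2, introduced into Col, with flc-3, a fast-neutron mutant allele of FLC. The line flc-3 has the same mutant FLC in Col-0 and lacks FRI from Sf-2, and both are described as early flowering. The line FRI has FRI from Sf-2 in Col with no flc mutation. The stage is given as vegetative on all FRI arrays and on all arrays of day 0, and as transition to flowering on the FRI flc-3 arrays from day 3 on. In flc-3 it is transition at days 3 and 5 and on 1 of the 3 arrays of day 7. No plants were kept in short days alongside, so added age and long days cannot be told apart.

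FRI raises the expression of FLC, a MADS-box repressor of flowering, and a plant with functional alleles of both flowers late. In long days, signals from the leaves reach the shoot apex and start its change from making leaves to making flowers. AT1G60160 encodes a potassium transporter of the KUP/HAK/KT family, whose members move potassium across membranes and act in cell expansion. AT3G49160 encodes a protein of the pyruvate kinase family, and pyruvate kinase catalyses the last step of glycolysis. AT1G60630 encodes a leucine-rich repeat receptor-like kinase, a class of proteins that includes many cell surface receptors.

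The 2%-trimmed mean signal was 100.007 to 100.009 on the 36 arrays, the median signal was 40.6 to 43.3, and arrays of the same group correlated at 0.989 or above, lowest in FRI flc-3 before the long days. Of the shoot meristem markers fixed for this work, 2 of 12 had a probe set with a listed locus. LAS, which acts in axillary meristems, had a signal of 22.3 to 45.9, and CLV3, the stem cell peptide of the meristem, was dim at 2.71 to 21.6. Of 10 photosynthetic leaf markers 3 had one, RCA, LHCB4.1 and PRK, and all 3 were bright, with lowest signals of 863, 1369 and 331. In RNA from a mixed tissue, more cells of a type and more RNA per cell cannot be told apart.

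AT1G60160, the potassium transporter gene, had a higher mean at each later sampling and its highest levels in both flc mutant lines. In FRI flc-3, AT1G60160 had signals of 109, 114 and 132 at day 0, 153, 141 and 139.6 at day 3, 201, 210.9 and 229 at day 5, and 309, 272 and 248 at day 7. In flc-3, AT1G60160 had 105, 127 and 104 at day 0, 170.2, 146 and 142 at day 3, 220.0, 230.4 and 223 at day 5, and 288, 286 and 307 at day 7. In FRI, AT1G60160 had 103, 101 and 95.03 at day 0, 143, 119 and 143 at day 3, 141, 163 and 137 at day 5, and 193, 167 and 176 at day 7. The 3 arrays of each day lay above all those of the sampling before in both mutant lines, while days 3 and 5 overlapped in FRI. Every array of both mutant lines at days 5 and 7 lay above every FRI array of day 7. Day 7 minus day 0 was 1.12 in FRI flc-3, 1.28 in flc-3 and 0.75 in FRI on the log2(signal + 16) scale.

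AT3G49160, the pyruvate kinase family gene, was the latest of the 5 by the share of its rise present at day 5. In FRI flc-3, AT3G49160 had signals of 30.3, 31.4 and 32.6 at day 0, 45.3, 43.2 and 49.6 at day 3, 48.5, 43.3 and 49.4 at day 5, and 97.8, 89.3 and 96.2 at day 7. In flc-3, AT3G49160 had 33.7, 31.5 and 34.5 at day 0, 44.0, 45.2 and 45.9 at day 3, 45.4, 44.8 and 51.5 at day 5, and 94.2, 106.0 and 112 at day 7. In FRI, AT3G49160 had 38.2, 27.7 and 31.2 at day 0, 44.1, 32.8 and 40.5 at day 3, 37.5, 54.4 and 42.7 at day 5, and 61.8, 63.9 and 62.9 at day 7. In FRI flc-3 and flc-3 the arrays of day 3 already lay above all those of day 0. By then 31.7% and 24.2% of the log2 difference between days 7 and 0 was present. Days 3 and 5 overlapped in all 3 lines, and the arrays of day 7 lay above all those of day 5 in each. Only 33.7% of the log2 difference between days 7 and 0 was present by day 5 in FRI flc-3, 28.1% in flc-3 and 46.1% in FRI. At day 7 the FRI arrays lay below all arrays of the other lines. Of 13 family loci, chosen after the members were known, 6 had a probe set with a listed locus. For the 5 besides AT3G49160, day 7 minus day 0 was -0.20 to 0.13 over the 3 lines, and AT4G26390 and AT3G04050 among them were dim, with mean signals under 10.

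AT1G60630, the receptor-like kinase gene, had nearly its full level by day 5. In FRI flc-3, AT1G60630 had signals of 56.7, 38.7 and 48.9 at day 0, 48.1, 46.7 and 57.3 at day 3, 81.1, 90.2 and 87.1 at day 5, and 94.3, 88.8 and 83.9 at day 7. In flc-3, AT1G60630 had 35.1, 43.1 and 41.3 at day 0, 58.9, 48.0 and 56.4 at day 3, 83.1, 80.5 and 89.7 at day 5, and 89.6, 92.5 and 93.2 at day 7. In FRI, AT1G60630 had 34.5, 47.0 and 41.9 at day 0, 39.9, 58.9 and 41.0 at day 3, 93.3, 79.0 and 71.9 at day 5, and 82.3, 75.9 and 80.7 at day 7. In all 3 lines the arrays of day 5 lay above all those of days 0 and 3, and overlapped those of day 7. The lines overlapped with each other at days 0, 3 and 5. At day 7 minus day 0 its log2 differences were 0.72 in FRI flc-3, 0.95 in flc-3 and 0.75 in FRI, the narrowest spread over lines among the 5. AT1G60160 and AT1G60630 both lie on chromosome 1 but are not neighbours, with 37 protein-coding loci between them, and AT3G49160 lies on chromosome 3.

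The probe set 251858_at was the brightest of the 5 and increased in steps. In FRI flc-3, 251858_at had signals of 376, 364 and 361 at day 0, 447, 453 and 424 at day 3, 598, 666 and 640.3 at day 5, and 809, 819 and 951 at day 7. In flc-3, 251858_at had 285, 333 and 379 at day 0, 460.2, 390.4 and 447 at day 3, 609.8, 591 and 639 at day 5, and 771, 714 and 732 at day 7. In FRI, 251858_at had 305, 303 and 304 at day 0, 342, 398 and 321 at day 3, 449.6, 486 and 427 at day 5, and 545, 470.2 and 515 at day 7. Every step lay above the one before it in FRI flc-3 and flc-3, and in FRI days 5 and 7 overlapped. Day 7 minus day 0 was 1.19 in FRI flc-3, 1.12 in flc-3 and 0.71 in FRI.

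The probe set 247723_at had most of its increase by day 5 in FRI flc-3, more so than in the other lines. In FRI flc-3, 247723_at had signals of 70.4, 81.9 and 46.4 at day 0, 61.9, 73.5 and 75.4 at day 3, 112, 103 and 114 at day 5, and 124, 121 and 126 at day 7. In flc-3, 247723_at had 45.5, 49.4 and 47.9 at day 0, 58.1, 56.2 and 50.7 at day 3, 76.6, 93.2 and 85.4 at day 5, and 137, 127 and 141 at day 7. In FRI, 247723_at had 45.1, 53.6 and 51.5 at day 0, 59.4, 59.2 and 61.2 at day 3, 70.5, 78.7 and 80.2 at day 5, and 99.1, 89.9 and 95.4 at day 7. Replicate 3 of FRI flc-3 at day 0 lay at the level of the other lines, and the other 2 arrays of that group lay above them. By day 5, 80.3% of the log2 difference between days 7 and 0 was present in FRI flc-3, 53.4% in flc-3 and 65.0% in FRI. Day 7 minus day 0 was 0.79 in FRI flc-3, 1.25 in flc-3 and 0.75 in FRI. Without replicate 3 of day 0 the value in FRI flc-3 was 0.60, below the limit of 0.7, with 74.2% of it present by day 5.

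**Figure D1:**
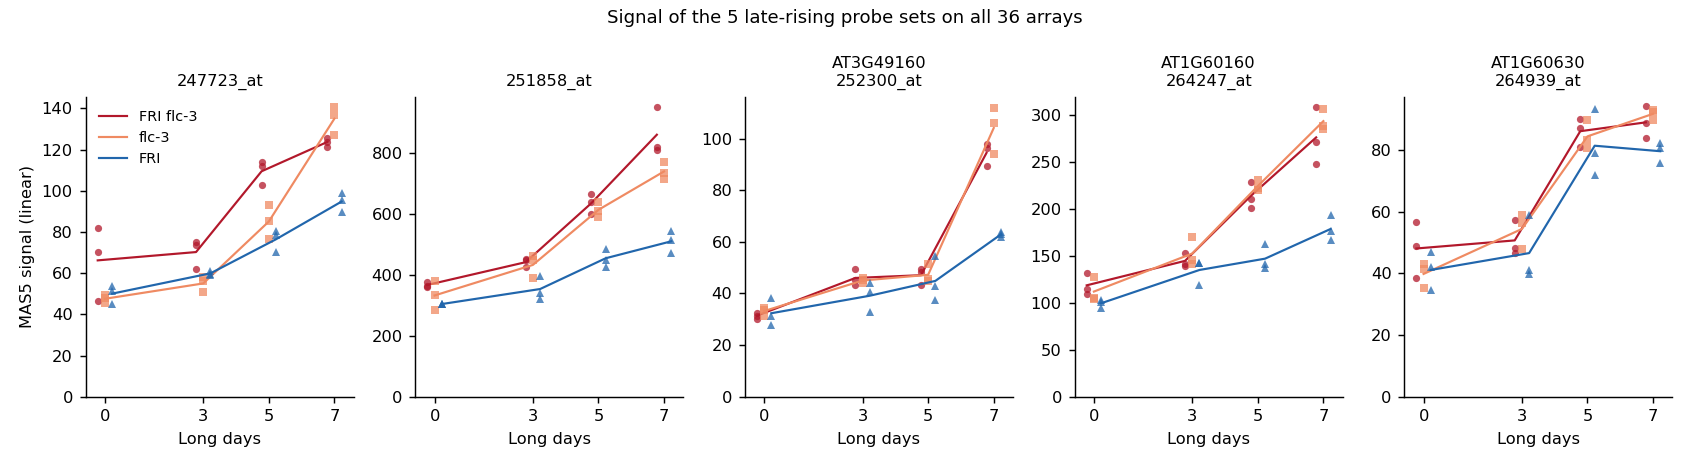
MAS5 signal on a linear scale (vertical axis) against long days (horizontal axis) for the 5 late-rising probe sets; each point is 1 array, lines join the means of 3 arrays, and points of the lines are shifted sideways for legibility. At day 7 the FRI arrays lie below those of both mutant lines in all panels, most widely for 251858_at, AT3G49160 and AT1G60160. The share of all probe sets with this order of lines was not counted.

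The word late holds only relative to the limit of 0.4. Day 3 minus day 0 was above 0 for all 5 probe sets in all 3 lines, from 0.06 to 0.40, and day 3 held 8.89% to 51.0% of the log2 difference between days 7 and 0. In 11 of the 15 combinations of probe set and line, the 3 arrays of day 3 lay above all 3 of day 0. Over all probe sets that share was 12.0% in FRI flc-3, 13.1% in flc-3 and 11.8% in FRI. By day 5 the arrays lay above those of day 0 in 14 of 15 combinations, against 16.5%, 20.7% and 15.9% of all probe sets in FRI flc-3, flc-3 and FRI. The exception was AT3G49160 in FRI. The arrays of day 5 lay above those of day 3 in 11 of 15, against 10.9%, 14.2% and 12.3% of all probe sets in the same order of lines. Those of day 7 lay above those of day 5 in 11 of 15, against 11.0%, 12.6% and 6.94%. Days 0, 3 and 7 chose the members, so these counts describe the 5 probe sets and carry no test.

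**Figure D2:**
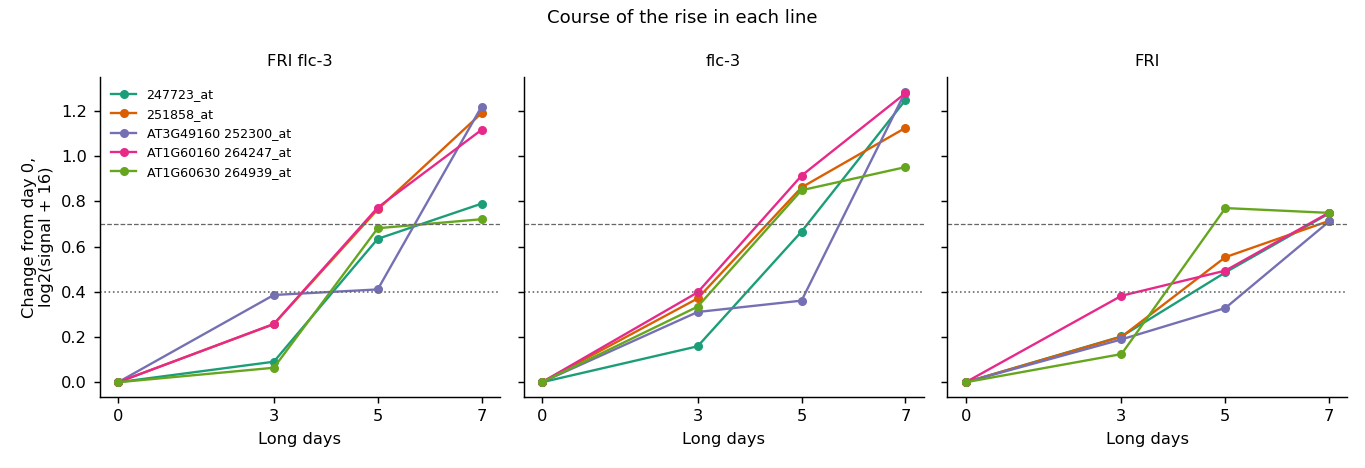
Change from day 0 in the mean of log2(signal + 16) (vertical axis) against long days (horizontal axis), 1 panel per line and 1 coloured line per probe set, each point a difference between means of 3 arrays. The dashed line marks 0.7 and the dotted line 0.4; AT3G49160 makes most of its step after day 5 in FRI flc-3 and flc-3, and AT1G60630 levels off at day 5.

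Few probe sets met both conditions in all 3 lines, and the condition on day 3 removed most of those that met the day 7 condition in all 3. Day 7 minus day 0 was at least 0.7 for 634 probe sets in FRI flc-3 (2.79%), for 671 in flc-3 (2.95%) and for 198 in FRI (0.870%), and for 111 in all 3 lines. Of these 111, 75 were at or above 0.4 by day 3 in every line, 23 in 2 lines, 8 in 1 line and 5 in none. Taken line by line, both conditions were met by 357 probe sets in FRI flc-3, 340 in flc-3 and 59 in FRI. Swapping the signs of both conditions gave 10 late fallers. In the 5 late risers the median of day 7 minus day 0 was 1.12 in FRI flc-3, 1.25 in flc-3 and 0.75 in FRI, against 1.49, 1.51 and 0.97 in the other 106 shared risers. By day 5 the median share of the log2 difference was 69.2%, 71.5% and 65.8% in the 5, against 87.6%, 92.3% and 98.6% in those 106. The medians of day 7 minus day 0 over all probe sets were -0.02, -0.03 and 0.01 in FRI flc-3, flc-3 and FRI.

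The 5 members lay close to the thresholds. Day 7 minus day 0 was lowest in FRI for 4 of them, at 0.71 for AT3G49160 and 251858_at and at 0.75 for AT1G60160 and 247723_at, and the lowest value of AT1G60630 was 0.72, in FRI flc-3. The nearest inside was AT1G60160, with a day 3 difference of 0.397 in flc-3, followed by AT3G49160 and 251858_at with 0.711 and 0.714 at day 7 in FRI. The nearest outside was 246310_at, which missed through a day 3 difference of 0.403 in flc-3. Next came AT2G43535, with 0.679 at day 7 in FRI, and 250483_at, with 0.424 at day 3 in flc-3. Leaving out each of the 27 arrays of days 0, 3 and 7 in turn gave 2 to 6 members, and all 5 were kept for 14 of the 27. Some settings brought in other probe sets, and 11 of the 27 gave the same 5 and no others. Without replicate 2 of flc-3 at day 3 only 247723_at and AT3G49160 remained, and without replicate 1 of FRI at day 0 only 251858_at and AT3G49160 remained of the 5. Without replicate 3 of FRI flc-3 at day 0 the rule lost 247723_at and AT3G49160. Over the 27 settings 247723_at was kept in 25, 251858_at in 24, AT3G49160 and AT1G60630 in 23 each and AT1G60160 in 21.

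**Figure D3:**
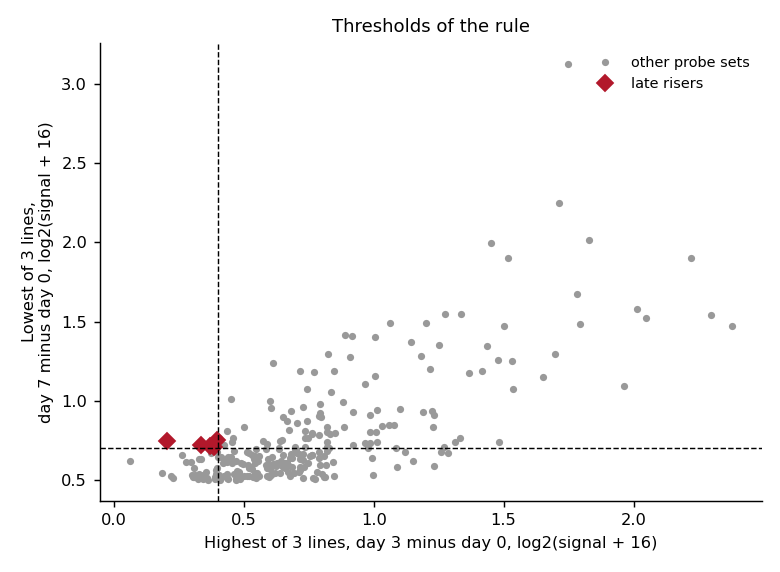
For each probe set with a lowest day 7 difference of at least 0.5, the lowest day 7 minus day 0 among the 3 lines (vertical axis) against the highest day 3 minus day 0 (horizontal axis), both as log2(signal + 16). Dashed lines mark 0.7 and 0.4; the 5 late risers (red) sit in the upper left corner field, close to its edges, and the other shared risers all lie at or to the right of 0.4, as the rule fixes.

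**Figure D4:**
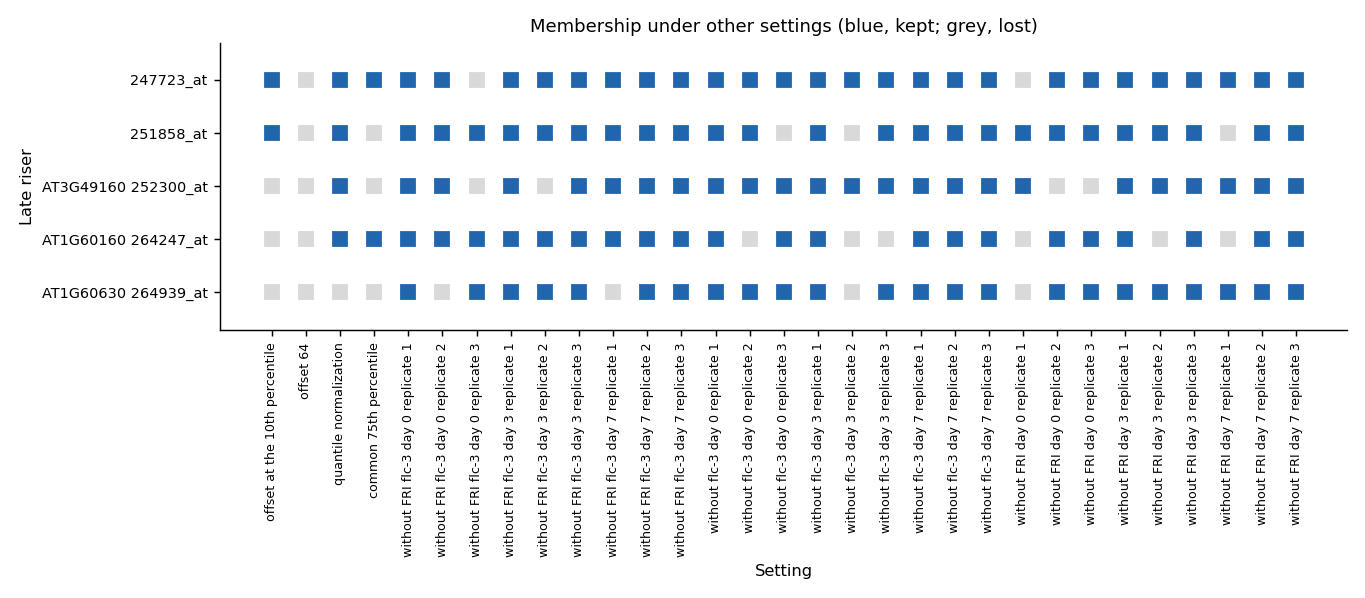
Whether each of the 5 probe sets (rows) still met the rule under each other setting (columns), with 4 other scalings or offsets at the left and the 27 settings that leave out 1 array after them. Blue marks kept and grey lost, and probe sets gained under a setting are not shown. No column but the offset of 64 loses all 5.

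The day 5 arrays were not used by the rule, so the lines were compared there. The comparison of FRI flc-3 with FRI at day 5 asked how the members differed with the loss of FLC where both lines have FRI from Sf-2. AT1G60160, 251858_at and 247723_at were higher in FRI flc-3, and AT3G49160 and AT1G60630 did not pass the test. AT1G60160 had 213.6 ± 14.2 in FRI flc-3 and 147 ± 13.9 in FRI (SD, n = 3 each), a log2 difference of 0.50 ± 0.08 (SE, limma adjusted p = 0.00012). The probe set 251858_at had 635 ± 34.4 in FRI flc-3 and 454 ± 29.8 in FRI, a difference of 0.47 ± 0.08 (limma adjusted p = 0.00014). The probe set 247723_at had 109 ± 6.00 in FRI flc-3 and 76.5 ± 5.28 in FRI, a difference of 0.44 ± 0.10 (limma adjusted p = 0.0033). For all 3 the arrays of FRI flc-3 lay above all arrays of FRI, a pattern that was not counted over all probe sets. The calls were 3 of 5 members, all higher, where 7.91% of all probe sets were called. For AT3G49160 the difference was 0.06 (95% confidence interval -0.12 to 0.24, limma adjusted p = 0.82) and for AT1G60630 it was 0.07 (-0.15 to 0.29, limma adjusted p = 0.81). By direction, 3.23% of all probe sets were higher in FRI flc-3 and 4.68% lower, 1799 in all at an adjusted p under 0.05. The median difference was 0.44 over the 5 members and -0.00084 over all probe sets.

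Between flc-3 and FRI, which differ in both genes, AT1G60160 and 251858_at were higher in flc-3 at day 5. AT1G60160 had 224 ± 5.41 in flc-3 and 147 ± 13.9 in FRI (SD, n = 3 each), a log2 difference of 0.56 ± 0.08 (SE, limma adjusted p = 2.0e-05). The probe set 251858_at had 613 ± 24.2 in flc-3 and 454 ± 29.8 in FRI, a difference of 0.42 ± 0.08 (limma adjusted p = 0.00055). These were 2 of 5 members, where 13.0% of all probe sets were called. For both the arrays of flc-3 lay above all arrays of FRI, which was likewise not counted over all probe sets. The difference of 247723_at was 0.13 (95% confidence interval -0.08 to 0.33, limma adjusted p = 0.44), with arrays of both lines overlapping. AT3G49160 and AT1G60630 had differences of 0.06 and 0.05, with intervals of -0.12 to 0.25 and -0.17 to 0.27 (limma adjusted p = 0.70 and 0.81). Called were 6.06% of all probe sets as higher and 6.97% as lower in flc-3, with a median difference of -0.03 over all and of 0.13 over the members. This comparison shares the FRI arrays with the one before.

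Between FRI flc-3 and flc-3, which share the mutant FLC, 0 of the 5 members passed the limma test at day 5, where 2.69% of all probe sets did, and 1 member had an unadjusted p under 0.05. That was 247723_at, with a signal of 109 ± 6.00 in FRI flc-3, while that in flc-3 was 85.1 ± 8.31 (SD, n = 3 each), a log2 difference of 0.31 ± 0.10 (SE, limma adjusted p = 0.082). Its 3 arrays of FRI flc-3 lay above the 3 of flc-3. In a fit without replicate 3 of FRI flc-3 at day 0, added after the data were seen, it passed with a difference of 0.31 ± 0.07 (SE, limma adjusted p = 0.013), against 0.055 to 0.29 in the other alternatives. The other 4 differences were -0.07 to 0.05, with intervals that reached from -0.24 to 0.24. Called were 1.32% of all probe sets as higher and 1.37% as lower.

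**Figure D5:**
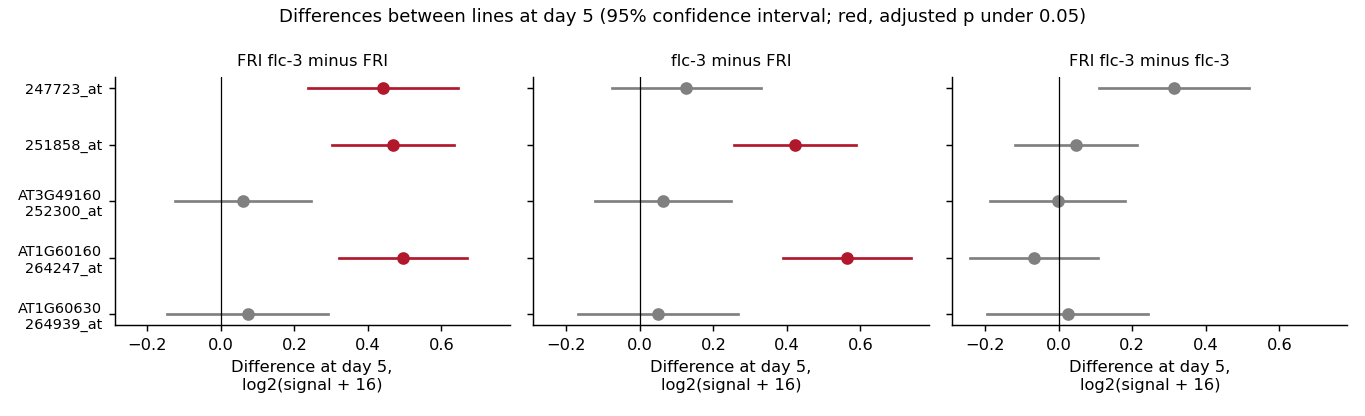
Differences between lines at day 5 in log2(signal + 16) (horizontal axis) for the 5 late risers (rows), with 95% confidence intervals from limma, 1 panel per comparison. Red marks an adjusted p under 0.05: AT1G60160 and 251858_at in both comparisons with FRI, and 247723_at in FRI flc-3 minus FRI.

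The lines also differed on other days, which chose the members and are given without a test. At day 7 FRI flc-3 minus FRI was 0.73 for 251858_at, 0.58 for AT1G60160, 0.48 for AT3G49160, 0.34 for 247723_at and 0.13 for AT1G60630. For flc-3 minus FRI the day 7 differences were 0.67 for AT1G60160, 0.60 for AT3G49160, 0.52 for 251858_at, 0.45 for 247723_at and 0.17 for AT1G60630. The arrays of both mutant lines lay above those of FRI at day 7 for all 5. The share of all probe sets with this order of lines was not counted, so it only describes the members. For AT3G49160 the arrays of the 3 lines thus overlapped at day 5 and those of FRI stood apart at day 7. At day 0, before any long day, FRI flc-3 minus FRI was 0.29 for 247723_at, 0.26 for 251858_at, 0.22 for AT1G60160, 0.16 for AT1G60630 and -0.02 for AT3G49160. For 251858_at and AT1G60160 these were smaller than the differences at day 5, also without replicate 3 of FRI flc-3 at day 0 (0.27 and 0.15). For 247723_at the size turns on that array: without it, a setting added after the data were seen, the day 0 difference was 0.48, against 0.44 at day 5. For flc-3 minus FRI the day 0 differences were 0.14 for AT1G60160 and 0.11 for 251858_at, smaller than at day 5.

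Of the other 106 shared risers, the test at day 5 put 47 above and 8 below FRI in FRI flc-3, and 45 above and 8 below FRI in flc-3. Over all probe sets 3.23% were called above and 4.68% below FRI in FRI flc-3, and 6.06% and 6.97% in flc-3. Calls above FRI were thus frequent among all shared risers, and their median difference was 0.26 for FRI flc-3 and 0.23 for flc-3. Of 16 floral promoter genes fixed as a list, 3 had a probe set with a listed locus, and none met the rule. At day 5 all 3 were higher in both mutant lines than in FRI: AGL42, a MADS-box gene, by 1.04 (FRI flc-3) and 1.103 (flc-3), FD, a bZIP factor of the floral transition, by 0.73 and 0.90, and AGL24, another MADS-box gene, by 0.32 and 0.43 (limma adjusted p from 1.4e-10 to 0.028). Day 7 minus day 0 of AGL42 was 2.24 in FRI flc-3, 2.07 in flc-3 and 0.94 in FRI. That of FD was 1.21, 1.11 and 0.48 in the same order of lines, and that of AGL24 was -0.06, 0.18 and 0.31, highest in FRI.

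The leaf markers were lower at days 5 and 7 than at day 0 in all 3 lines. The summed signal of RCA, LHCB4.1 and PRK was 3857 to 4197 at day 0, 3704 to 3977 at day 3, 3239 to 3678 at day 5 and 2598 to 2920.3 at day 7 in FRI flc-3. In flc-3 the sum was 4414 to 5059, 3681 to 3909.7, 2911 to 3268 and 2768 to 2832 on the same days. In FRI it was 4036 to 4506, 4172 to 4300.1, 3023 to 3637 and 3154 to 3539. In FRI the sum at day 3 lay within its range at day 0, and days 5 and 7 overlapped. In flc-3 the sums at day 3 lay below all those at day 0. In both mutant lines the sums at day 7 lay below all those at day 5. At day 5 the 3 lines overlapped in this sum, and limma called 0 of the 3 markers in any comparison of lines, with 0, 1 and 1 at an unadjusted p under 0.05 in FRI flc-3 minus FRI, flc-3 minus FRI and FRI flc-3 minus flc-3. The summed signal of CLV3 and LAS was 34.4 to 51.0 at day 7 and 31.9 to 44.2 at day 0 in FRI flc-3, 46.3 to 54.5 and 39.4 to 50.3 in flc-3, and 37.0 to 57.8 and 32.3 to 42.4 in FRI. None of the 6 vascular tissue markers had a probe set with a listed locus. The part of tissue makeup in the change of the members over time was not tested.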

How the data were processed

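The deposited values are linear signal intensities, 1 per probe set, which the submitters' processing notes credit to MAS5. Its version, scaling target and masking are not given in the sources used here. The 64 control rows among the 22810 probe sets were dropped, and no other scaling or filter was applied. Fits used log2(signal + 16) with limma 3.58.1 in R 4.3.3, 1 mean for each of 12 groups, 24 residual degrees of freedom and moderation by eBayes along an intensity trend. Two-sided p-values had Benjamini-Hochberg adjustment over 22746 probe sets and were called under 0.05. They set a difference against the spread of arrays within groups, estimated over all 12 groups. Whether replicates were separate plants is not given. All 5 members were tested. The number of arrays limits the precision.

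Probe sets were named through the platform annotation and the RefSeq gene table (TAIR10.1). Of the 22746, 13513 have 1 listed gene, 503 several and 8730 none, and 13436 matched 1 locus. The rule for naming took every member called at day 5, the members of largest day 7 difference, the 3 nearest to the thresholds on each side and members of fixed lists. With 5 members, it named all of them. The members, rule and lists were chosen with earlier results of these data known. The pyruvate kinase and KUP/HAK/KT families were added after the members had been seen. Of 13 listed KUP/HAK/KT loci only AT1G60160 had a probe set with a listed locus, so no relative could be compared. Of 203 genes in the fixed lists, 35 had a probe set with a listed locus and 0 met the rule. The day 5 fit was also run on simulated data with independent noise and changes added only to brighter probe sets. The rule for members was not part of that simulation. The outcome of the simulation is not given here, and no result above rests on it. Alternatives were an offset at the 10th percentile of the signals (1.62) or of 64, quantile normalization, a common 75th percentile, a filter on dim probe sets, eBayes without the trend, a fit to the 6 arrays compared, a replicate block, and leaving out single arrays.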

Additional observations from a re-analysis of the deposited data

How the results depend on the processing

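The number of late risers depends on how the signals are scaled. The rule gave 10 with an offset at the 10th percentile (2 of them among the 5), 0 with an offset of 64, 4 with quantile normalization and 3 with a common 75th percentile (2 of them among the 5), against 5. Leaving out 1 array gave 2 to 6. An offset of 64 shrinks log2 differences by construction, most in dim probe sets, and it also lost 251858_at, the brightest of the 5. The cause of the changes in membership was not tested. The 5 calls of members at day 5 in FRI flc-3 minus FRI and flc-3 minus FRI were kept in each of the 15 alternatives, with adjusted p from 7.6e-06 to 0.029. In FRI flc-3 minus flc-3, 1 member was called in the fit without replicate 3 of FRI flc-3 at day 0 and 0 in the other 14, so leaving out 1 array gave 0 to 1.

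Counts over all probe sets moved more. A fit to the 6 arrays compared called 971 probe sets in FRI flc-3 minus FRI, 370 higher and 601 lower, against 1799, and 200 higher in FRI flc-3 minus flc-3, against 301. Leaving out 1 array gave 1869 to 3136 calls in flc-3 minus FRI, 865 to 1465 higher and 1004 to 1715 lower, against 2963, and the lowest came without replicate 1 of FRI at day 5. In FRI flc-3 minus flc-3 it gave 272 to 750 calls, 111 to 378 higher and 157 to 372 lower, against 612. Some differences near 0 changed sign without passing the test. AT3G49160 (252300_at) had -0.029 to 0.17 in FRI flc-3 minus FRI and -0.026 to 0.17 in flc-3 minus FRI without 1 array, the lowest without replicate 1 of FRI at day 5. In FRI flc-3 minus flc-3 it had -0.031 to 0.044 without 1 array, 0.023 under quantile normalization and 0.020 under a common 75th percentile. AT1G60630 (264939_at) had -0.022 to 0.14 in flc-3 minus FRI and -0.0048 to 0.061 in FRI flc-3 minus flc-3.

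Replicate numbers are shared between groups, and deviations of same-numbered arrays at day 5 correlated by -0.03 to 0.11. No strong pairing by number was seen there, but such correlations can miss a weak one. The main fit did not use the numbers. With the replicate block the calls were 1775, 2982 and 621 against 1799, 2963 and 612, with 3, 2 and 0 members called.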
